A study of Mus musculus with 16 samples.

Results

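The comparison asked how the liver transcriptome of mice without methylmalonyl-CoA mutase differed between the fasted and the unfasted state. It rests on 8 of the 16 arrays of the series, chosen by their titles: 4 from fasted mutants and 4 from unfasted mutants, 1 liver each. The mutants were Mut -/-;TgINS-MCK-Mut mice, which lack the enzyme gene Mut (now Mmut) everywhere except where the transgene, driven by the muscle creatine kinase (MCK) promoter, restores it. Fasted mutants had gone 8 to 12 hours without food, with no length given for the single mouse, and unfasted mutants had a normal diet. The remaining arrays came from heterozygous Mut +/-;TgINS-MCK-Mut mice, 4 fasted for 12 hours and 4 unfasted, so the controls carried the same muscle transgene and the fasts of the genotypes were not matched. All mice were males, 4 months old. A rescue in muscle leaves the liver without the enzyme, and such a mouse models the liver disease of methylmalonic acidemia rather than the loss in every tissue.

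Fasting is known to lower insulin and raise glucagon and glucocorticoids. The liver then stops making fatty acids and sterols, a program run by the transcription factors SREBP-1c (encoded by Srebf1), ChREBP and SREBP-2. It burns fatty acids that arrive from adipose tissue under the nuclear receptor PPAR-alpha, and makes glucose from amino acids, lactate and glycerol with the help of the coactivator PGC-1 alpha (Ppargc1a). Methylmalonyl-CoA mutase works in the mitochondrial breakdown of propionate, which is formed from branched-chain and other amino acids and from odd-chain fatty acids.

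RNA was read on Affymetrix Mouse Gene 1.0 ST arrays as normalized log2 values (RMA), for 19938 genes with 1 annotated symbol. Array medians lay between 7.33 and 7.4, and the number of arrays limits the precision. Values are differences of log2 means ± standard error from a limma model, with 4 arrays a group, and a gene is called when its adjusted p is under 0.05. Mmut, the targeted gene, read 7.85, 8.03, 8.13 and 8.33 in fasted mutants and 8.33, 8.02, 7.87 and 7.94 in unfasted mutants, against 9.66 to 10.10 on the 8 heterozygous arrays. No mutant array reached a heterozygous one, and Mmut did not pass the fasting test in mutants (0.05 ± 0.11, adjusted p = 0.83). The labelled tissue matched its markers: the mean of 11 hepatocyte markers was 12.98 to 13.01 in fasted mutants and 12.86 to 13.04 in unfasted mutants, and Alb, the albumin gene, averaged 13.54 and 13.61. One unfasted mutant array, replicate 1, stood apart. Acinar cells of the pancreas secrete digestive enzymes, and the mean of 16 of their markers was 10.58 there, against 6.53 to 6.59 in fasted mutants and 6.67 to 6.72 on the other unfasted mutant arrays. Results are therefore also given without it.

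Fasting raised 464 genes (2.33% of those tested) and lowered 203 (1.02%) in mutants. Without mutant unfasted replicate 1, 1050 were higher (5.27%) and 891 lower (4.47%), and 653 of the 667 calls remained with the same sign. The responses were mostly small: the median size of a called difference was 0.37 log2 units, and 26 genes changed at least 2-fold, 11 higher and 15 lower. For 611 of the called genes, 91.6%, the 4 fasted and the 4 unfasted arrays did not overlap, while 2000 of the 19938 genes tested had such a separation. At an unadjusted p under 0.05 there were 4428 genes. The fit shares 1 estimate of the spread over all 16 arrays. The median gene SD was 0.09 in fasted and 0.11 in unfasted mutants, and 0.07 in each heterozygous group. In a fit of the 8 mutant arrays alone, 73 of the 84 named genes called here lost their call. That fit called 19 genes higher and 14 lower, and the cause of this drop was not tested. The count also fell to 170 and 54 without mutant fasted replicate 2, to 256 and 115 without mutant fasted replicate 3, to 194 and 93 without mutant unfasted replicate 2, and to 241 and 101 without mutant unfasted replicate 4. After a second quantile normalization the split was 290 higher and 215 lower, a smaller share of rises than the 69.6% of the calls above.

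**Figure D1:**
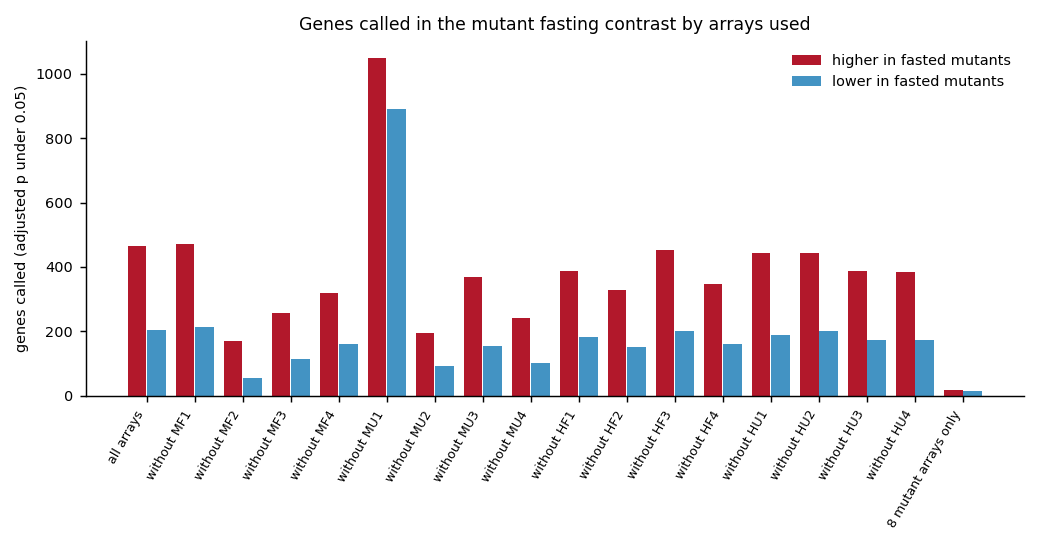
Number of genes called in the mutant fasting contrast (y axis, red higher and blue lower in fasted mutants) with all arrays, with each array left out in turn, and in a fit of the 8 mutant arrays. MF and MU are fasted and unfasted mutants, HF and HU fasted and unfasted heterozygotes, with the replicate number. The bars reach 1050 and 891 without MU1, the array with acinar transcripts, and drop to 170 and 54 without MF2.

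Several genes that make fatty acids fell after the fast, and Thrsp fell the most of the named genes. Thrsp, the Spot 14 protein that promotes lipogenesis, read 7.40, 7.96, 7.59 and 8.37 in fasted mutants and 11.18, 10.84, 10.68 and 9.52 in unfasted mutants. The groups were more than 1 log2 unit apart at their nearest arrays, and the difference was -2.73 ± 0.36 (6.62-fold, adjusted p = 0.0026). Fasn, fatty acid synthase, read 10.19, 10.03, 9.69 and 10.40 in fasted mutants, against 11.81, 11.66, 11.79 and 11.60 in unfasted mutants. It fell by 1.64 ± 0.14 (3.12-fold, adjusted p = 6.4e-05), the unfasted arrays lying close together. Elovl6, which lengthens the products of fatty acid synthase, read 10.91, 10.80, 10.49 and 10.69 in fasted mutants and 11.65, 11.76, 12.15 and 11.81 in unfasted mutants. Its difference was -1.12 ± 0.14 (adjusted p = 0.0019). Acaca, acetyl-CoA carboxylase, which makes the malonyl-CoA used by fatty acid synthase, read 9.76 to 10.25 in fasted mutants and 10.87 to 11.18 in unfasted mutants, a difference of -0.97 ± 0.11 (adjusted p = 0.00064). Thrsp, Fasn, Elovl6 and Acaca kept their calls with any 1 array left out and in the fit of the mutant arrays alone.

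Promoters, taken from RefSeq on build GRCm38.p6 as 250 bases before to 50 after the start, were searched on both strands of the 30 genes with the largest rises and falls, of which 25 had a window. The letters were CRE (TGACGTCA), E-box (CACGTG), D-box (TTANGTAA), FOXO (TTGTTTAC), ATF4-CEBP (TGATGNAAT), and PPRE and GRE by name. Of the 25 genes, 5 held a motif. The share of all windows with any of these motifs was not computed, so this count cannot be read as more than usual. The promoter of Elovl6, on the plus strand of chr3:129532136-129532435, is one of the 4 shown, which are those of the largest named changes with a searched motif. In capitals is a FOXO match on the reverse strand whose first base lies at -123, in letters that 1.23% of all 32851 promoter windows hold.
Elovl6: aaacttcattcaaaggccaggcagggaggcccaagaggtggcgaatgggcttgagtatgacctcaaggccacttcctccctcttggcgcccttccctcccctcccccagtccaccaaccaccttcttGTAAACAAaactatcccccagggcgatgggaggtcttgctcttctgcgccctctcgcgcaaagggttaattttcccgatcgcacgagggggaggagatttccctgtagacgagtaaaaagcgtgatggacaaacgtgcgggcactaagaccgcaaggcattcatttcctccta

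Srebf1, the lipogenic transcription factor, read 8.77, 8.78, 8.85 and 9.30 in fasted mutants and 9.31, 9.5, 9.49 and 10.21 in unfasted mutants. The highest fasted array lay just under the lowest unfasted one, and the difference was -0.70 ± 0.17 (1.63-fold, adjusted p = 0.032). This call was lost without mutant unfasted replicate 2 or 4 or mutant fasted replicate 1, 2 or 3, with adjusted p up to 0.094. Acss2, the cytosolic acetyl-CoA synthetase, fell by 0.93 ± 0.19 (adjusted p = 0.015). Srebf1 (adjusted p = 0.16) and Acss2 (0.065) were not called in the fit of the mutant arrays alone. Of 24 measured genes of fatty acid synthesis, 8 fell, 2 rose and 14 did not pass, against 1.02% called lower and 2.33% higher over all genes. The list's median difference was -0.17, against -0.01 over all genes. The 2 that rose, chosen here after their values were seen, were Insig2, an endoplasmic reticulum protein that holds back SREBP processing, at 0.71, and Elovl5, an elongase of polyunsaturated fatty acids, at 0.41. Scd1, stearoyl-CoA desaturase, differed by -0.36 ± 0.12 (adjusted p = 0.092) and Pklr, liver pyruvate kinase, by -0.71 ± 0.21 (adjusted p = 0.071). Without mutant unfasted replicate 1 the list had 9 falls and 2 rises, and with other single arrays left out between 6 and 9 falls. Scd1 passed without that array (-0.43, adjusted p = 0.039).

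Cholesterol synthesis genes had the lowest median of the gene groups described here, the acinar markers aside. Of 20 measured members 7 fell, none rose and 13 did not pass, against 1.02% called lower and 2.33% higher over all genes. In 19 of them the difference was negative, and the median was -0.71. Lss, lanosterol synthase, read 9.90, 9.67, 8.82 and 9.90 in fasted mutants and 10.68, 10.69, 10.48 and 10.28 in unfasted mutants (-0.96 ± 0.22, adjusted p = 0.027). Hmgcs1, the cytosolic HMG-CoA synthase, read 11.48, 11.34, 10.70 and 11.62 in fasted mutants, against 11.92 to 12.15 in unfasted mutants (-0.72 ± 0.16, adjusted p = 0.024). In both genes fasted replicate 3 was the lowest array, and no fasted array reached an unfasted one. Idi1, isopentenyl diphosphate isomerase, which did not pass, had the same order, at 11.25, 10.93, 10.06 and 11.28 in fasted mutants and 11.74 to 12.07 in unfasted mutants (-1.07 ± 0.29, adjusted p = 0.055). Pmvk, phosphomevalonate kinase, differed by -0.93 ± 0.18 (adjusted p = 0.013), Tm7sf2, a sterol reductase, by -0.77 ± 0.19 (adjusted p = 0.039) and Fdft1, squalene synthase, by -0.58 ± 0.15 (adjusted p = 0.040), and all of them were called lower. Nsdhl, a sterol dehydrogenase, at -1.05 ± 0.28, missed the threshold (adjusted p = 0.051) and passed without mutant unfasted replicate 1 (adjusted p = 0.042).

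The number of sterol genes called depended on single arrays. Lss lost its call without mutant unfasted replicate 2 or mutant fasted replicate 2 (adjusted p up to 0.071), Hmgcs1 without any of 4 arrays (up to 0.063), Tm7sf2 without any of 8 (up to 0.12) and Fdft1 without any of 9 (up to 0.11). The count was 9 without mutant unfasted replicate 1, 10 without mutant fasted replicate 1, 11 without heterozygous unfasted replicate 2, 2 without mutant fasted replicate 2, 4 without mutant fasted replicate 3, and 3 without each of mutant unfasted replicates 2, 3 and 4. The fit of the mutant arrays alone called none of the 20, of which 19 had an unadjusted p under 0.05 in the fit of all arrays.

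**Figure D2:**
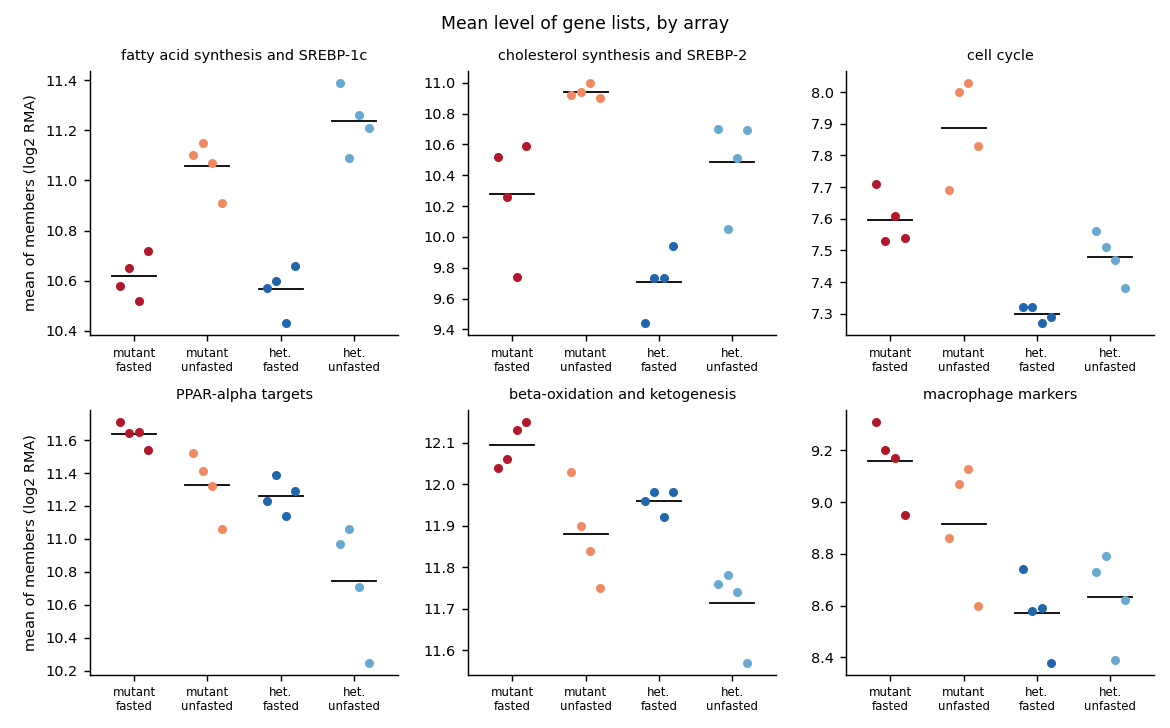
Mean log2 level of 6 gene lists on each array (points) by group, with the group mean as a bar. The sterol list was 9.74 to 10.59 in fasted mutants, below the 10.9 to 11 of unfasted mutants, and the PPAR-alpha list was 11.54 to 11.71 in fasted mutants, against 11.06 to 11.52 in unfasted mutants.

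Transcripts of proteins that handle stored and circulating fat moved with the lipogenic genes or against them. Angptl8, an insulin-induced inhibitor of lipoprotein lipase, read 8.33, 9.05, 8.75 and 9.09 in fasted mutants and 10.03, 10.62, 10.34 and 10.16 in unfasted mutants. It fell by 1.48 ± 0.24 (2.79-fold, adjusted p = 0.0061) with no overlap. The promoter on the plus strand of chr9:21835260-21835559 (GRCm38.p6) holds the ATF4-CEBP letters, in capitals, with their first base at -130, as do 0.965% of all windows.
Angptl8: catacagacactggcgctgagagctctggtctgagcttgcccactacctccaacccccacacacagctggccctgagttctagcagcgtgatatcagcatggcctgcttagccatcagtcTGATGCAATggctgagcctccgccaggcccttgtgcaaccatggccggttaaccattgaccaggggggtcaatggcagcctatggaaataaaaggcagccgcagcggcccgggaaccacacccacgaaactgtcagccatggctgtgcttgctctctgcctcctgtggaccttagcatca
 Pnpla2, adipose triglyceride lipase, which starts the breakdown of droplet fat, read 11.48, 11.05, 10.98 and 10.93 in fasted mutants, against 10.37, 10.14, 10.70 and 10.22 in unfasted mutants. The rise was 0.75 ± 0.16 (adjusted p = 0.022). Plin5, a droplet coat protein that links droplets to mitochondria, rose by 0.65 ± 0.13 (adjusted p = 0.018), Apoa4, an apolipoprotein, by 0.73 ± 0.19 (adjusted p = 0.041) and Fitm2, a droplet-forming membrane protein, by 0.48 ± 0.11 (adjusted p = 0.033). In all, 5 of 27 measured genes of lipid droplets, lipolysis and lipoproteins rose, 1 fell and 21 did not pass, with a median of 0.22. Over all genes 2.33% were called higher and 1.02% lower.

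Cidec, another droplet protein, showed how uneven the unfasted mutants were. It read 10.60 to 11.05 in fasted mutants and 9.91, 9.68, 9.97 and 7.93 in unfasted mutants, so that the groups did not overlap, yet the difference of 1.48 ± 0.46 did not pass (adjusted p = 0.084). Lepr, the leptin receptor, read 11.80, 11.09, 10.83 and 10.53 in fasted mutants and 10.61, 9.87, 10.05 and 6.99 in unfasted mutants. With all arrays it did not pass (1.68 ± 0.59, adjusted p = 0.12), and without mutant unfasted replicate 1 it did (2.09, adjusted p = 0.041). Both genes were lowest in unfasted replicate 4. Calls of Plin5 (adjusted p = 0.064 without mutant fasted replicate 2), Pnpla2 (up to 0.062), Fitm2 (up to 0.089) and Apoa4 (up to 0.10) were lost without single arrays, and with mutant fasted replicate 2 or mutant unfasted replicate 2 or 4 left out the list had 1 rise. Without mutant fasted replicate 3 or 4 it had 2 rises, and without mutant fasted replicate 1 it had 3.

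Some PPAR-alpha targets and enzymes of fatty acid oxidation rose by modest amounts. They were 5 of 29 and 7 of 20 measured members, against 2.33% called higher over all genes. Cpt1a, the carnitine palmitoyltransferase that admits long-chain fatty acids to mitochondria, read 12.54, 12.43, 12.56 and 12.52 in fasted mutants and 12.14, 12.12, 12.14 and 11.80 in unfasted mutants. The lowest fasted array exceeded the highest unfasted one, and the rise was 0.46 ± 0.10 (1.38-fold, adjusted p = 0.023). Ehhadh, the peroxisomal bifunctional enzyme, read 13.10, 12.90, 12.89 and 12.69 in fasted mutants and 12.40, 12.28, 11.82 and 12.27 in unfasted mutants, a rise of 0.70 ± 0.15 (adjusted p = 0.019). Etfdh, which passes electrons from fatty acid oxidation to ubiquinone, read 12.39 to 12.43 in fasted mutants, against 12.10, 12.01, 11.94 and 11.90 in unfasted mutants. Its rise of 0.42 ± 0.06 (adjusted p = 0.0027) kept its call with any array left out and in the fit of the mutant arrays alone. Hadhb, a subunit of the trifunctional protein, rose by 0.42 ± 0.09 (adjusted p = 0.020), Slc25a20, the carnitine-acylcarnitine carrier, by 0.41 ± 0.10 (adjusted p = 0.038), Creb3l3, a liver transcription factor of lipid metabolism, by 0.35 ± 0.07 (adjusted p = 0.018) and Eci1, an enoyl-CoA isomerase, by 0.34 ± 0.08 (adjusted p = 0.030). Slc25a20 lost its call without any of 11 single arrays (adjusted p up to 0.10), Eci1 without any of 6 (up to 0.083), and Hadhb without mutant unfasted replicate 2 or 4 or mutant fasted replicate 2 (up to 0.059). Cpt1a lost it without mutant unfasted replicate 4 or mutant fasted replicate 3 (up to 0.059), Ehhadh without mutant fasted replicate 2 (0.055) and Creb3l3 without mutant fasted replicate 3, where its adjusted p rounded to 0.05.

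Of the 29 PPAR-alpha targets 5 rose, none fell and 24 did not pass, with a median of 0.33 and 27 positive differences. Of the list of beta-oxidation and ketogenesis, 7 of 20 rose, none fell and 13 did not pass, with a median of 0.23. The lists share genes, among them Cpt1a and Slc25a20. Acot1, an acyl-CoA thioesterase, read 9.57 to 10.32 in fasted mutants and 8.50 to 9.39 in unfasted mutants and did not pass (0.91 ± 0.33, adjusted p = 0.13), although the groups did not overlap. Acadvl, the very long-chain acyl-CoA dehydrogenase, passed without mutant unfasted replicate 1 (0.40, adjusted p = 0.0061) and not with it (0.31 ± 0.08, adjusted p = 0.054). Without that array 11 beta-oxidation genes and 6 PPAR-alpha targets rose. Without mutant fasted replicate 2, mutant unfasted replicate 2 or mutant unfasted replicate 4, 2 beta-oxidation genes did. Without mutant fasted replicate 3 there were 3, and without mutant fasted replicate 4 or mutant unfasted replicate 3 there were 4. The PPAR-alpha count was 2 without mutant fasted replicate 2 or 3 and 3 without mutant unfasted replicate 4. The fit of the mutant arrays alone called 1 beta-oxidation gene, Etfdh, and no PPAR-alpha target.

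Fgf21, a fasting hormone of the liver and a PPAR-alpha target, did not follow the other targets. It read 8.60, 9.44, 9.10 and 8.72 in fasted mutants and 10.39, 10.03, 9.47 and 9.03 in unfasted mutants, against 8.12 to 8.48 in fasted and 7.96 to 8.15 in unfasted heterozygotes. The mutant difference of -0.76 ± 0.23 did not pass (adjusted p = 0.074), and it passed without mutant unfasted replicate 4 (-1.0, adjusted p = 0.026). Its difference from the heterozygous fasting response was -1.04 and was not called (adjusted p = 0.36). Pdk4, the kinase that blocks pyruvate oxidation, read 12.57, 12.35, 11.37 and 11.23 in fasted mutants and 12.03, 11.77, 11.15 and 10.54 in unfasted mutants. These groups overlapped and did not differ past the test (0.50 ± 0.39, adjusted p = 0.45).

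Among genes of glucose production, a regulator and 3 enzymes rose. Ppargc1a read 10.99, 10.24, 10.14 and 9.58 in fasted mutants and 8.70, 8.41, 8.93 and 9.57 in unfasted mutants. Fasted replicate 4 and unfasted replicate 4 were nearly equal, and the rise was 1.33 ± 0.26 (2.52-fold, adjusted p = 0.015). Pck1, the cytosolic phosphoenolpyruvate carboxykinase, read 13.00, 12.70, 12.86 and 12.80 in fasted mutants, against 12.56, 12.31, 12.17 and 12.11 in unfasted mutants (0.55 ± 0.10, adjusted p = 0.011). G6pc, glucose-6-phosphatase, which releases free glucose, read 13.24, 12.74, 12.85 and 12.78 in fasted mutants and 11.68, 11.95, 12.36 and 12.69 in unfasted mutants (0.73 ± 0.17, adjusted p = 0.031). Got1, the cytosolic aspartate aminotransferase, read 12.56, 12.36, 12.34 and 12.20 in fasted mutants and 11.15, 10.93, 10.60 and 11.62 in unfasted mutants. It rose by 1.29 ± 0.29 (2.44-fold, adjusted p = 0.027). The fasted arrays of all 4 genes lay above the unfasted ones, though unfasted replicate 4 came close in Ppargc1a and G6pc.

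These 4 were the called members among 22 genes of gluconeogenesis and amino acid catabolism, of which none fell and 18 did not pass, with a median of 0.19. Over all genes 2.33% were called higher and 1.02% lower. Hal, histidine ammonia-lyase, at 0.64 ± 0.26 (adjusted p = 0.16), and Agxt, an alanine-glyoxylate aminotransferase, at 0.89 ± 0.37 (adjusted p = 0.17), overlapped between groups. Without mutant unfasted replicate 1 there were 5 rises, and without mutant fasted replicate 2 or 3 or mutant unfasted replicate 2 there were 2. Got1 lost its call without mutant unfasted replicate 2 or 3 or mutant fasted replicate 1, 2 or 3 (adjusted p up to 0.070), and G6pc without mutant unfasted replicate 2 or mutant fasted replicate 1, 2 or 3 (up to 0.088), while Got1 kept it in the fit of the mutant arrays alone. That fit did not call Ppargc1a (adjusted p = 0.11), Pck1 (0.079) or G6pc (0.16).

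In the urea cycle, which removes the nitrogen of amino acids, Arg1 (arginase) and Slc25a15 (the mitochondrial ornithine carrier) rose among 9 measured genes. The share called higher over all genes was 2.33%. Arg1 read 12.34, 12.42, 12.43 and 12.43 in fasted mutants and 12.07, 11.96, 11.71 and 11.69 in unfasted mutants (0.55 ± 0.09, adjusted p = 0.0091). The fit of the mutant arrays alone did not call Arg1 (adjusted p = 0.06). Slc25a15 rose by 0.58 ± 0.15 (adjusted p = 0.042), a call lost without 9 single arrays, with adjusted p up to 0.11. Otc, ornithine transcarbamylase, differed by -0.59 ± 0.25 (adjusted p = 0.18). Catabolism of branched-chain amino acids and propionate, in which Mmut itself acts, had 25 measured genes, and the 2 that rose act on 1 enzyme complex in opposite ways. Ppm1k, the phosphatase that activates branched-chain keto acid dehydrogenase, read 10.97, 11.16, 11.46 and 11.38 in fasted mutants, against 10.72, 10.74, 10.49 and 10.76 in unfasted mutants (0.56 ± 0.11, adjusted p = 0.016). Bckdk, the kinase that inhibits it, rose by 0.39 ± 0.09 (adjusted p = 0.036), a call lost without mutant unfasted replicate 2 or 4 or any of the mutant fasted arrays (up to 0.096). Ppm1k (adjusted p = 0.089) and Bckdk (0.13) were not called in the fit of the mutant arrays alone. The list's median was 0.02.

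The largest rise without overlap was that of Gm15441, a long non-coding RNA outside the naming rule and named after its values were seen. It read 11.50, 10.57, 11.69 and 9.61 in fasted mutants and 8.33, 7.82, 8.07 and 6.69 in unfasted mutants (3.11 ± 0.46, adjusted p = 0.0040). Among the genes open to naming, Cyp17a1, a steroid 17-alpha-hydroxylase, had the largest called rise. It read 9.53, 10.35, 10.09 and 10.43 in fasted mutants and 9.08, 8.57, 7.83 and 7.64 in unfasted mutants, a rise of 1.82 ± 0.34 (3.54-fold, adjusted p = 0.012). Unfasted replicate 1, the array with acinar transcripts, was the highest of its group, and the rise was 2.09 without it (adjusted p = 0.0052). Nipal1, a magnesium transporter, read 10.27, 10.03, 9.88 and 10.03 in fasted mutants and 8.55, 8.76, 9.07 and 9.04 in unfasted mutants. Its rise of 1.19 ± 0.12 (2.29-fold, adjusted p = 0.00026) kept its call under every array left out and in the fit of the mutant arrays alone. Slc41a3, another gene of a magnesium transporter family, read 8.89 to 9.82 in fasted mutants and 8.16 to 8.57 in unfasted mutants (0.98 ± 0.15, adjusted p = 0.0056). In the fit of the mutant arrays alone Cyp17a1 (adjusted p = 0.065) and Slc41a3 (0.08) were not called. Slc25a25, a mitochondrial ATP-magnesium/phosphate carrier, read 11.40, 10.43, 10.38 and 10.69 in fasted mutants, against 9.96, 9.57, 9.58 and 9.62 in unfasted mutants (1.04 ± 0.21, adjusted p = 0.018). It lost its call without mutant unfasted replicate 2 (adjusted p = 0.051). One of the promoter windows of Slc25a25, on the minus strand of chr2:32424017-32424316 (GRCm38.p6), holds a pair of motifs. In capitals are a CRE, the element through which cAMP is known to act, at -150, in 1.79% of all windows, and a D-box at -32, in 2.32% of them.
Slc25a25: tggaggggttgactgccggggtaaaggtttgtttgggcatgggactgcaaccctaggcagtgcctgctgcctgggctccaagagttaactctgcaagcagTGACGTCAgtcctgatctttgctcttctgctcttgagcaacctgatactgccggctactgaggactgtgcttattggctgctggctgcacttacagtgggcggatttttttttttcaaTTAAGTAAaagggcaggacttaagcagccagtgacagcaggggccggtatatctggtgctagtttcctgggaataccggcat

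Tmem120a, a membrane protein, read 9.91 to 10.33 in fasted mutants and 9.09 to 9.39 in unfasted mutants (0.92 ± 0.11, adjusted p = 0.0012), and Tmtc2, a transmembrane mannosyltransferase, 8.63 to 9.18 in fasted and 7.90 to 8.26 in unfasted mutants (0.90 ± 0.14, adjusted p = 0.0058). Both kept their calls under every array left out and in the fit of the mutant arrays. Tbc1d8 rose by 1.01, Tmem62 by 0.92 and Cntnap1 by 0.90, with adjusted p between 0.0092 and 0.011. In the fit of the mutant arrays alone Tbc1d8 (adjusted p = 0.095), Tmem62 (0.066) and Cntnap1 (0.056) were not called. Fam13a at 1.25, Gpcpd1 (a glycerophosphocholine phosphodiesterase) at 1.17, Pgm3 (an enzyme of hexosamine synthesis) at 0.89 and Aqp4 (a water channel) at 0.85 were called with adjusted p between 0.027 and 0.041. Leaving out 1 array took the call from Fam13a (adjusted p up to 0.095, 4 arrays), Gpcpd1 (0.11, 11 arrays), Pgm3 (0.071, 5 arrays) and Aqp4 (0.096, 6 arrays), mutant fasted replicate 2 and mutant unfasted replicate 2 being among them for each.

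**Figure D3:**
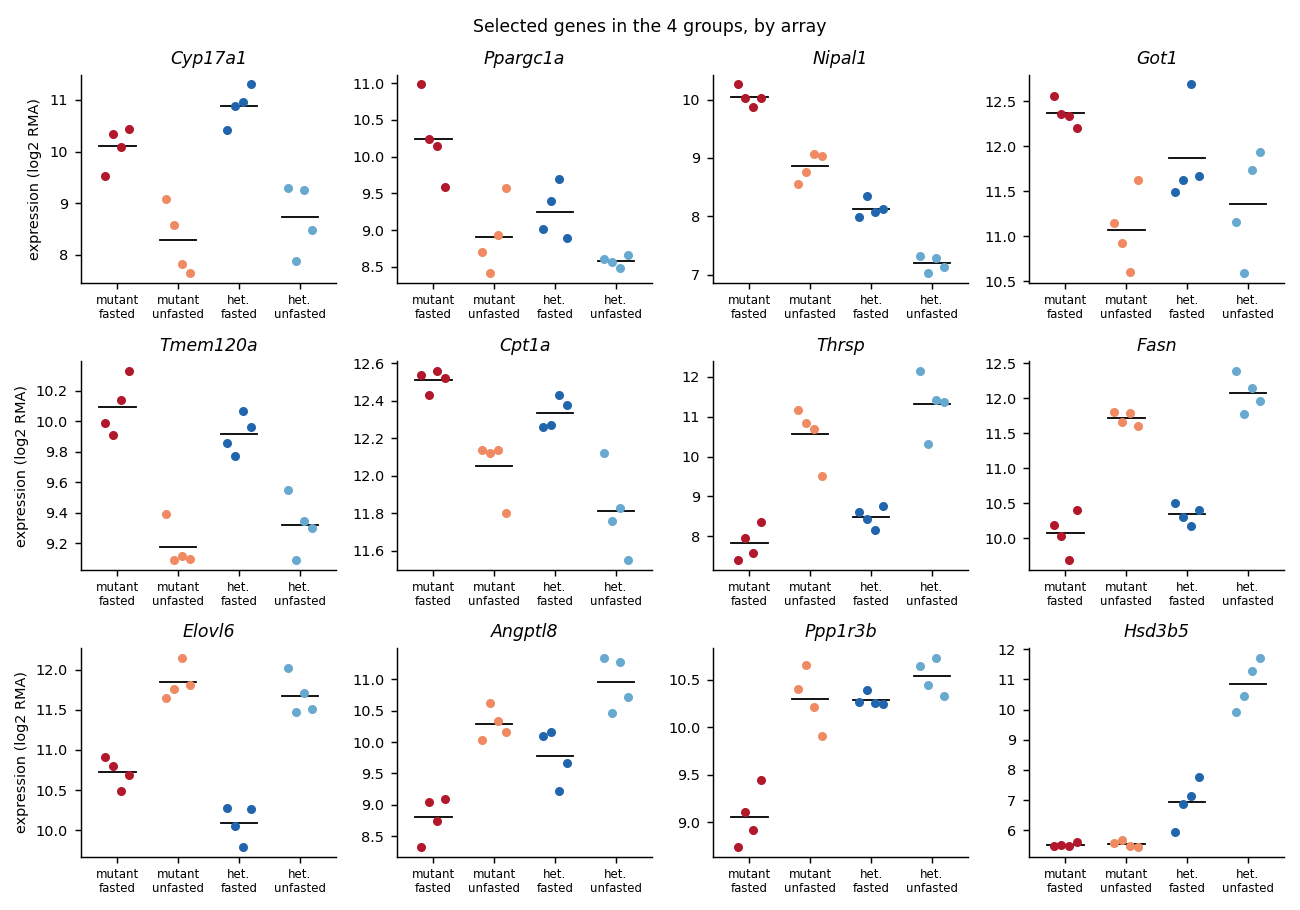
Log2 level of 12 genes on each array (points) by group, with the group mean as a bar, and with fasted mutants at the left of each panel. Fasted and unfasted mutants do not overlap except in Hsd3b5, which read 5.47 to 5.61 in fasted and 5.44 to 5.69 in unfasted mutants.

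Cyp2c55, a cytochrome P450, read 6.13, 5.94, 5.47 and 6.78 in fasted mutants and 7.2, 8.56, 7.86 and 8.82 in unfasted mutants (-2.03 ± 0.32, 4.08-fold, adjusted p = 0.0059). Steroid dehydrogenases fell too: Hsd3b2 differed by -1.65 ± 0.36 (adjusted p = 0.023) and Hsd3b3 by -1.61 ± 0.36 (adjusted p = 0.026). Hsd3b3 read 8.18, 9.38, 10.14 and 10.71 in fasted mutants, against 10.84 to 11.40 in unfasted mutants, and Hsd3b2 read 6.36, 7.06, 7.72 and 8.58 in fasted mutants and 8.83 to 9.41 in unfasted mutants. The fasted mutants thus spread over more than 2 units in both genes while the unfasted ones lay together. Members of the Hsd3b, Cyp2c and Gstp families are close in sequence, and their probes can pick up one another's transcripts. Cyp2c70, which makes muricholic acids in mice, fell by 1.25 ± 0.27 (adjusted p = 0.020), and Cyp2c29 by 0.60 ± 0.14 (adjusted p = 0.029). Osgin1, an oxidative stress-induced growth inhibitor, read 9.92, 9.75, 10.05 and 10.49 in fasted mutants and 11.70, 11.87, 10.70 and 11.60 in unfasted mutants (-1.42 ± 0.26, adjusted p = 0.010). In the fit of the mutant arrays alone Cyp2c55 (adjusted p = 0.071) and Osgin1 (0.068) were not called.

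Cyp2c55, Cyp2c29 and Ces2a, a carboxylesterase (-0.48 ± 0.12, adjusted p = 0.041), were the 3 called members among 16 targets of the drug-sensing receptors CAR and PXR, with none higher. Over all genes 1.02% were called lower and 2.33% higher. Cyp2b10, the usual CAR marker, read 7.72 to 8.45 in fasted mutants and 8.29, 9.44, 8.60 and 11.23 in unfasted mutants. It did not pass with all arrays (-1.42 ± 0.52, adjusted p = 0.13) and did without mutant unfasted replicate 1 (-1.79, adjusted p = 0.047). Among 22 genes of bile acid synthesis and transport, Akr1d1 (a steroid 5-beta-reductase) fell by 0.86 ± 0.20 (adjusted p = 0.029), Abcb11, the bile salt export pump, fell by 0.60 ± 0.11 (adjusted p = 0.0099), and Abcb4, the phospholipid exporter into bile, rose by 0.41 ± 0.09 (adjusted p = 0.024). Abcb11 read 11.31, 11.48, 11.57 and 11.76 in fasted mutants and 12.26, 12.07, 11.88 and 12.31 in unfasted mutants. It kept its call with any array left out and lost it in the fit of the mutant arrays alone (adjusted p = 0.082). Cyp8b1, sterol 12-alpha-hydroxylase, was 10.28 to 12.15 in fasted mutants and 7.79, 8.51, 9.72 and 11.26 in unfasted mutants. Its difference of 1.69 ± 0.55 did not pass (adjusted p = 0.096), except without mutant unfasted replicate 4 (2.34, adjusted p = 0.017).

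Further falls were those of Gstp3 (a glutathione transferase, -1.17 ± 0.27, adjusted p = 0.029), Nxpe2 (-1.06 ± 0.20, adjusted p = 0.013), Aqp8 (a water channel of the canalicular membrane and mitochondria, -1.03 ± 0.26, adjusted p = 0.039) and Cyp4f14 (a fatty acid omega-hydroxylase, -0.98 ± 0.26, with an adjusted p that rounds to 0.05 and lies under it). Aqp8 read 9.39, 9.31, 9.57 and 8.91 in fasted mutants and 9.68, 10.34, 10.57 and 10.72 in unfasted mutants, with unfasted replicate 1 nearest to the fasted arrays. The Aqp8 promoter, on the plus strand of chr7:123462044-123462343 (GRCm38.p6), holds an E-box, in capitals, with its first base at -75, as do 7.15% of all windows. A match is a description of these letters and no evidence of binding.
Aqp8: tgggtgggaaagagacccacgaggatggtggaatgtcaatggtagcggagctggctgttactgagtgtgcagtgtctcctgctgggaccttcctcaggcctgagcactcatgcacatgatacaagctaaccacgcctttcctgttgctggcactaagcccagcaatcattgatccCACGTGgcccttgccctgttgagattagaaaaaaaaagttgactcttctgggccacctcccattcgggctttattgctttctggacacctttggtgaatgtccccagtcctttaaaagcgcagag
The call of Cyp4f14 was lost under 13 of the 16 arrays left out (adjusted p up to 0.14), that of Aqp8 under 9 (up to 0.11), Gstp3 under 5 (up to 0.076), Akr1d1 under 5 (up to 0.093), Ces2a under 9 (up to 0.12), Cyp2c29 under 4 (up to 0.080), and Hsd3b3, Cyp2c70, Abcb4 and Hsd3b2 under 2 or 3 (up to 0.077). Mutant fasted replicate 2 was among those arrays for every one of them. Nxpe2 kept its call under every array left out and lost it in the fit of the mutant arrays alone (adjusted p = 0.099).

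Ppp1r3b, the subunit that directs a phosphatase to glycogen and promotes glycogen storage, read 8.74, 9.11, 8.92 and 9.45 in fasted mutants and 10.40, 10.65, 10.21 and 9.91 in unfasted mutants. It fell by 1.24 ± 0.15 (2.36-fold, adjusted p = 0.0016) and kept its call under every array left out and in the fit of the mutant arrays. Pygl, liver glycogen phosphorylase, which breaks glycogen down, also fell, by 0.50 ± 0.10 (adjusted p = 0.014), at 10.68 to 11 in fasted and 11.13 to 11.56 in unfasted mutants. They were the called genes among 18 of glycogen and glucose handling, against 1.02% called lower over all genes. Pygl lost its call in the fit of the mutant arrays alone (adjusted p = 0.11). Ppp1r3g, a related subunit that is known to rise in fasting mouse liver, read 11.69 in fasted replicate 1 and 8.53 to 8.71 on the other fasted arrays, against 7.97 to 8.47 in unfasted mutants (1.14 ± 0.49, adjusted p = 0.19).

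Insulin signalling and FOXO targets had 3 of 20 measured members called, against 2.33% higher and 1.02% lower over all genes. Of these, Mtor (0.43 ± 0.11, adjusted p = 0.038) and Insr, the insulin receptor (0.20 ± 0.05, adjusted p = 0.049), rose and Pik3r1, a regulatory subunit of phosphoinositide 3-kinase, fell (-0.40 ± 0.08, adjusted p = 0.020). Insr lost its call under 14 of the 16 arrays left out (adjusted p up to 0.12), Mtor under 8 (up to 0.10) and Pik3r1 without mutant unfasted replicate 2 or mutant fasted replicate 2 (up to 0.055). Igfbp1, which binds insulin-like growth factors and is repressed by insulin, read 13.03, 12.16, 11.76 and 12.34 in fasted mutants and 12.87, 12.41, 11.29 and 11.60 in unfasted mutants. The groups overlapped (0.28 ± 0.46, adjusted p = 0.74). Igf1, the growth factor itself, read 12.28 to 12.43 in fasted mutants and 12.27 to 12.39 in unfasted mutants (0.03 ± 0.06, adjusted p = 0.82). Bcl6, a repressor, read 7.71 to 8.17 in fasted mutants and 7.76, 8.76, 9.43 and 9.43 in unfasted mutants (-0.99 ± 0.40, adjusted p = 0.16), and passed without mutant unfasted replicate 1 (-1.35, adjusted p = 0.035). Lect2, a hepatokine, read 10.43 to 11.19 in fasted and 11.36 to 11.98 in unfasted mutants (-0.92 ± 0.19, adjusted p = 0.018), a call lost without mutant unfasted replicate 4 or mutant fasted replicate 2 (up to 0.064). Myc, a growth-promoting transcription factor, read 10.59, 9.94, 9.68 and 9.99 in fasted mutants and 8.95, 8.65, 8.55 and 8.61 in unfasted mutants. It did not pass in the fit of all arrays (1.36 ± 0.40, adjusted p = 0.072), in which the unfasted heterozygotes varied from 6.84 to 9.41, and passed in the fit of the mutant arrays alone (adjusted p = 0.042).

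All 25 measured cell cycle genes had a lower mean in fasted mutants, with a median of -0.24. Of these 4 fell and 21 did not pass, against 1.02% called lower over all genes. Rrm2, a ribonucleotide reductase subunit, read 7.23, 7.10, 7.32 and 7.35 in fasted mutants and 7.87, 8.28, 7.79 and 7.6 in unfasted mutants (-0.63 ± 0.15, adjusted p = 0.029). Top2a, topoisomerase II alpha, read 6.63, 6.38, 6.56 and 6.32 in fasted mutants, against 6.62, 7.22, 7.41 and 6.84 in unfasted mutants (-0.55 ± 0.13, adjusted p = 0.029). With the mean over its probe sets Top2a differed by -0.19 and was not called (adjusted p = 0.13). On the reported probe set, unfasted replicate 1 overlapped with the fasted arrays. Ccne2, cyclin E2, fell by 0.42 ± 0.07 (adjusted p = 0.010) and Mcm5, a replication helicase subunit, by 0.42 ± 0.10 (adjusted p = 0.038). Rrm2 lost its call without any of 3 arrays (up to 0.091), and Mcm5 (up to 0.10) and Top2a (up to 0.086) without any of 5. Mki67, the proliferation marker, did not pass (-0.59 ± 0.17, adjusted p = 0.070), nor did Ccnd1, cyclin D1, at 12.02, 11.46, 10.80 and 11.01 in fasted and 11.65 to 12.11 in unfasted mutants (-0.57 ± 0.28, adjusted p = 0.24).

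Unfasted replicate 1 had the lowest cell cycle mean of its group, 7.69, against 7.83 to 8.03 on the other unfasted arrays and 7.53 to 7.71 in fasted mutants. Without it 12 of the 25 genes fell, Mki67 (-0.78, adjusted p = 0.0079) among them. Without mutant fasted replicate 2 or 3 or mutant unfasted replicate 2 there was 1 fall, Ccne2 being the called gene that kept its call under every array left out, and without mutant fasted replicate 4 or mutant unfasted replicate 3 there were 2. In the fit of the mutant arrays alone Ccne2 was not called (adjusted p = 0.077). In unfasted heterozygotes the list was 7.38 to 7.56, below every unfasted mutant array. The arrays hold bulk tissue, in which fewer cells of a kind and less RNA per cell cannot be told apart.

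Stress genes are set against 2.33% called higher and 1.02% called lower over all genes. Of 28 ATF4 target genes of the integrated stress response, Shmt2, mitochondrial serine hydroxymethyltransferase, fell by 0.42 ± 0.08 (adjusted p = 0.011), none rose and 27 did not pass. Shmt2 lost its call in the fit of the mutant arrays alone (adjusted p = 0.086). The unfasted mutants were split for several of the 28 genes. Chac1, a glutathione-degrading enzyme, read 8.69 to 8.86 in fasted mutants and 11.24, 11.06, 8.29 and 8.33 in unfasted mutants, and Mthfd2, a mitochondrial folate enzyme, 7.80 to 8.52 in fasted mutants and 10.44, 10.36, 7.90 and 7.91 in unfasted mutants. In both genes unfasted replicates 1 and 2 were high and replicates 3 and 4 lay with the fasted arrays, and neither passed (adjusted p = 0.28 and 0.24). Saa2, an acute phase protein, was divided the same way, at 6.69 to 8.57 in fasted mutants and 10.68, 10.47, 8.03 and 8.27 in unfasted mutants (adjusted p = 0.25). Saa4 fell by 1.15 ± 0.25 (adjusted p = 0.023), the 1 call among 26 acute phase genes, and lost it without mutant unfasted replicate 2 or mutant fasted replicate 2 (adjusted p up to 0.067).

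Herpud1, a gene of endoplasmic reticulum stress, fell by 0.41 ± 0.11 (adjusted p = 0.041), the 1 call among 23 chaperone and folding genes, and lost it without any of 9 single arrays (adjusted p up to 0.12), mutant unfasted replicate 1 among them (-0.33, 0.053), and with median-centred arrays (0.051). Among 19 NRF2 and glutathione genes, Gsr, glutathione reductase, rose by 0.33 ± 0.07 (adjusted p = 0.020), while Osgin1 and Gclm, a subunit of glutamate-cysteine ligase (-0.26 ± 0.06, adjusted p = 0.027), fell, and 15.8% of the list was called. Gsr lost its call without mutant unfasted replicate 4 or mutant fasted replicate 2 (up to 0.066) and Gclm without any of 4 arrays (up to 0.079). Atg2a (0.48 ± 0.08, adjusted p = 0.010), an autophagy lipid-transfer protein, and Gabarapl2 (0.30 ± 0.08, adjusted p = 0.045), which tags autophagosome membranes, rose among 27 autophagy and lysosome genes. Gabarapl2 lost its call under 14 of the 16 arrays left out (adjusted p up to 0.11). Neither Atg2a (adjusted p = 0.063) nor Gabarapl2 (0.2) was called in the fit of the mutant arrays alone. Fh1, fumarase, rose by 0.44 ± 0.11 (adjusted p = 0.032) as the 1 call among 18 genes of the tricarboxylic acid cycle, lost without 6 arrays (up to 0.081). The counts of all these lists stand beside 2.33% called higher and 1.02% called lower over all genes.

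Over all 19938 genes limma called 2.33% higher and 1.02% lower, and 4428 had an unadjusted p under 0.05. By the same limma test no gene was called among 61 oxidative phosphorylation subunits, whose differences ran from -0.17 to 0.19 with a median of -0.01 (1 of them had an unadjusted p under 0.05). None was called among 18 circadian clock genes (4 unadjusted), 19 glucocorticoid-responsive genes (6 unadjusted), 24 ribosome biogenesis genes (6 unadjusted), 22 genes that follow growth hormone or are higher in males (3 unadjusted) or 20 interferon response genes (0 unadjusted). Per2, a clock repressor, read 8.40 to 8.75 in fasted mutants and 8.77 to 9.59 in unfasted mutants (-0.66 ± 0.18, adjusted p = 0.060). Cry1, another, read 7.47 to 7.85 in fasted mutants and 8.75, 8.96, 7.76 and 7.90 in unfasted mutants (-0.70 ± 0.21, adjusted p = 0.072). Per2 passed without mutant unfasted replicate 4 (adjusted p = 0.026) or heterozygous unfasted replicate 1 (0.027) or 2 (0.049). It also passed with array weights (0.039), a second quantile normalization (0.049) or bright genes alone (0.041). Cry1 passed without mutant unfasted replicate 3 (0.027) and with array weights (0.031). Without mutant unfasted replicate 1, 3 genes of ribosome biogenesis and 1 glucocorticoid-responsive gene rose and 1 male-biased gene fell. Among 14 heat shock genes Cryab, a small heat shock protein, fell (adjusted p up to 0.11 without 1 array), and Cyp17a1 was the 1 call among 15 female-biased genes. The time of day of sampling is not given in the sources used here.

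**Figure D4:**
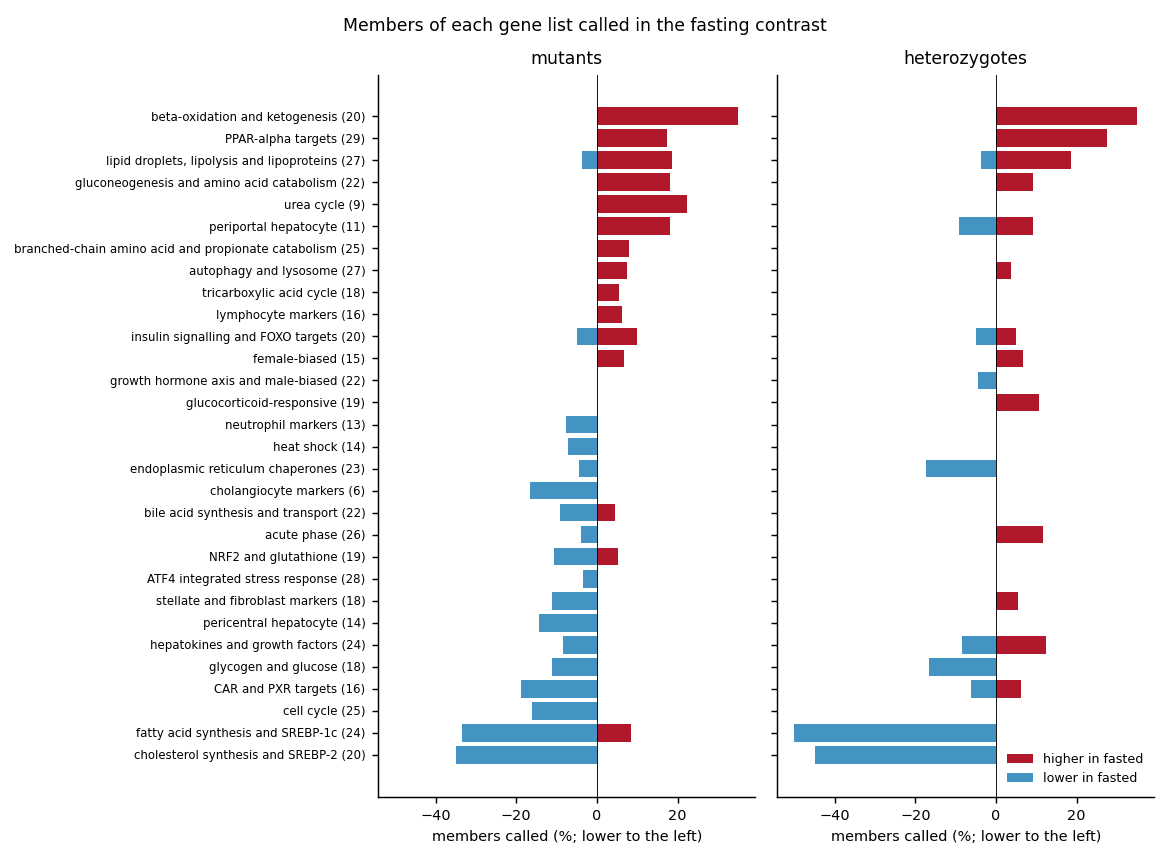
Share of measured members of each gene list (number in brackets) that were called higher (red, right) or lower (blue, left) in the fasting contrast, in mutants (left panel) and heterozygotes (right panel). Lists with no call in either genotype are not drawn. Cholesterol synthesis has 35.0% of its members called in mutants and beta-oxidation 35.0%, against 2.33% higher and 1.02% lower over all genes.

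Markers of other cell types were compared between fasted and unfasted mutants, beside 2.33% called higher and 1.02% called lower over all genes. An unadjusted p under 0.05 was found for 4428 of the 19938 genes. Of 17 endothelial markers none was called (2 had an unadjusted p under 0.05) and the median was -0.03. None of 19 macrophage markers was called either (7 unadjusted), although 16 were higher in fasted mutants, with a median of 0.28. The mean of the macrophage list was 8.95 to 9.31 in fasted mutants and 8.60 to 9.13 in unfasted mutants, and their ranges overlapped. Vsig4, a Kupffer cell receptor, read 11.13 to 11.67 in fasted and 10.24 to 11.27 in unfasted mutants (0.55 ± 0.20, adjusted p = 0.13). Of 18 stellate cell and fibroblast markers 2 fell, Lum (lumican), at 6.91 to 7.38 in fasted and 7.52 to 8.03 in unfasted mutants (-0.69 ± 0.12, adjusted p = 0.0099), and Ngfr (-0.30 ± 0.07, adjusted p = 0.024), which lost its call without any of 4 arrays (up to 0.077). Lum (adjusted p = 0.077) and Ngfr (0.15) were not called in the fit of the mutant arrays alone. These 2 genes are 11.1% of the list, and 15 of the 18 had a negative difference. The list's mean was 8.56 to 8.84 in fasted and 8.81 to 8.93 in unfasted mutants.

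The B cell marker Ms4a1 rose by 0.42 ± 0.10 (adjusted p = 0.038), the cholangiocyte marker Krt7 fell by 0.32 ± 0.07 (adjusted p = 0.025) and the neutrophil gene S100a9 fell by 0.22 ± 0.05 (adjusted p = 0.038). They are 6.25% of the lymphocyte, 16.7% of the cholangiocyte and 7.69% of the neutrophil markers, and all 6 cholangiocyte markers had a negative difference. Over all genes 2.33% were called higher and 1.02% lower. Without mutant unfasted replicate 1, 3 of 6 cholangiocyte and 2 of 13 neutrophil markers fell, against 4.47% called lower over all genes. Ms4a1, Krt7 and S100a9 are dim genes, between 5.18 and 7.47 on the log2 scale, and each lost its call without 5 or more single arrays (adjusted p up to 0.091). The zones of the lobule moved by a few genes. Pericentral Gulo, an enzyme of ascorbate synthesis, fell by 0.69 ± 0.15 and Cyp1a2 by 0.53 ± 0.12 (adjusted p = 0.024 each) among 14 genes. Gulo lost its call without any of 4 arrays (up to 0.079) and Cyp1a2 without any of 3 (up to 0.070), and both with array weights (0.058 and 0.053). Periportal Arg1 and Pck1, both described above, rose among 11. None of the 16 acinar markers was called. Their median difference was -1.22 with mutant unfasted replicate 1, and -0.12 without it, where 2 fell. The part of these cell types in the other results was not tested.

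The heterozygous contrast shares no array with the mutant one. After 12 hours of fasting 146 genes were higher (0.732%) and 167 lower (0.838%), and 2444 had an unadjusted p under 0.05. In both genotypes 49 genes rose and 28 fell. These are 10.6% of the mutant rises and 13.8% of the mutant falls, or 33.6% of the heterozygous rises and 16.8% of the heterozygous falls. Of the 667 genes called in mutants, 574 (86.1%) had a difference of the same sign in heterozygotes. The same share over all tested genes was not computed, so 86.1% cannot be read as particular to the called genes. The genes higher in mutants had a median difference of 0.36 in mutants and 0.14 in heterozygotes, and the lower ones -0.40 in mutants and -0.12 in heterozygotes, but they were selected on the mutant values. One gene was called in opposite directions. Sult1d1, a sulfotransferase, named after its values were seen, fell by 0.44 in mutants and rose by 0.50 in heterozygotes. Its interaction of genotype and fasting had an adjusted p of 0.11. Across all genes the fasting differences of the genotypes had a Pearson correlation of 0.43, a description over genes that are not independent replicates.

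**Figure D5:**
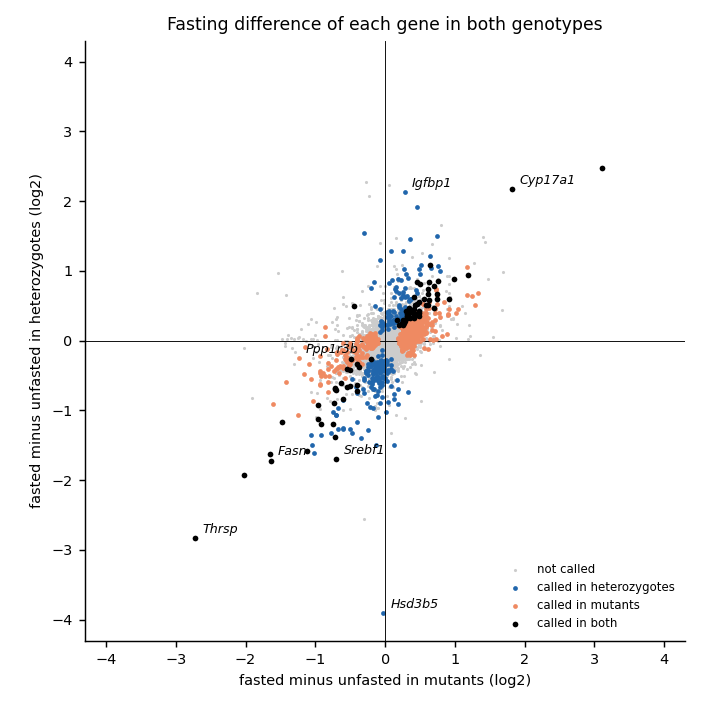
Fasted minus unfasted log2 difference of each gene in mutants (x axis) and heterozygotes (y axis). Black points were called in both genotypes, orange in mutants only, blue in heterozygotes only, and grey in neither. Thrsp, at -2.73 in mutants and -2.83 in heterozygotes, and Cyp17a1, at 1.82 and 2.17, lie near the diagonal, while Hsd3b5, at -0.03 and -3.91, lies on the vertical axis.

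The lipogenic falls had close values in both genotypes for Thrsp (-2.73 ± 0.36 in mutants and -2.83 ± 0.36 in heterozygotes) and Fasn (-1.64 ± 0.14 and -1.72 ± 0.14). The fatty acid list had 8 falls in mutants and 12 in heterozygotes, the cholesterol list 7 and 9, the PPAR-alpha list 5 rises and 8, and the beta-oxidation list 7 rises in each. The cell cycle list had 4 falls in mutants and none in heterozygotes, where its median was -0.17. With single arrays left out its mutant falls ran from 1 to 12. Over all genes 2.33% were called higher and 1.02% lower in mutants, and 0.732% higher and 0.838% lower in heterozygotes. No gene of these lists was called in the interaction, so the counts are not a tested difference between genotypes. Srebf1 differed by -0.70 ± 0.17 in mutants and -1.70 ± 0.17 in heterozygotes. The mutants were at 9.31 to 10.21 unfasted, under the 10.45 to 10.96 of unfasted heterozygotes, and the interaction of 1.0 was not called (adjusted p = 0.27). Ppp1r3b fell by 1.24 ± 0.15 in mutants and differed by -0.25 ± 0.15 in heterozygotes (interaction -0.99, adjusted p = 0.26). Igfbp1 differed by 0.28 ± 0.46 in mutants and rose by 2.13 ± 0.46 in heterozygotes. Its level in unfasted mutants, 11.29 to 12.87, lay above that of unfasted heterozygotes, 7.93 to 10.14 (interaction -1.85, adjusted p = 0.38).

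The test of the interaction called 2 genes (0.01% of those tested), with 2189 at an unadjusted p under 0.05. Hsd3b5, a male-biased steroid dehydrogenase, read 5.47, 5.50, 5.48 and 5.61 in fasted mutants and 5.57, 5.69, 5.49 and 5.44 in unfasted mutants. In heterozygotes it was 5.93, 6.86, 7.14 and 7.78 after the fast and 9.92, 10.44, 11.27 and 11.72 without it, a difference of -3.91. The mutants were at this low level in both states, under the lowest array median of 7.33, and the interaction was 3.87 (adjusted p = 0.015). Whether the probes could read a further fall at that level was not tested, so the value is no exact difference of responses. Xkr9, a membrane protein of the XK family, read 9.21 to 9.65 in fasted mutants and 9.15 to 9.36 in unfasted mutants, against 8.80 to 9.15 in fasted and 9.75 to 9.92 in unfasted heterozygotes (interaction 0.95, with an adjusted p that rounds to 0.05 and lies under it). Without mutant unfasted replicate 1 no gene was called, with 3721 at an unadjusted p under 0.05. A difference in genotype and a difference in the length of the fast cannot be told apart here.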

How the data were processed

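Liver RNA of 16 mice, 1 array each, was measured on Affymetrix Mouse Gene 1.0 ST arrays. The deposited values are log2 expression, made by the authors with Affymetrix Expression Console and RMA, per the submitters' processing notes, whose versions are not given in the sources used here. Of 35556 probe sets, 21789 had 1 gene symbol in the platform annotation, updated by Entrez ID to RefSeq GRCm38.p6 symbols for 21698. A gene with several probe sets was represented by the brightest, leaving 19938 genes. All 16 arrays were fitted together in limma 3.58.1 (R 4.3.3) as 4 group means with an intensity trend. This left 12 residual degrees of freedom, and p-values were adjusted by Benjamini-Hochberg over all genes. On simulated data 83% of changes of 0.5 log2 units and 97% of changes of 1 unit were recovered in the mutant contrast. The simulation gave all 4 groups 1 spread per gene and held no array like mutant unfasted replicate 1. In the data the median gene SD was 0.09 and 0.11 in fasted and unfasted mutants and 0.07 in each heterozygous group. The shares recovered are therefore not those of the real mutant contrast.

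Genes were named if they were among the 15 most raised or 15 most lowered calls with no overlap between fasted and unfasted arrays, leaving out predicted, olfactory and small RNA genes (25 calls were small RNA or predicted), and besides these a set of fasting genes, up to 5 called and 2 other members of each list, and the genes of the interaction. The members and lists were chosen with earlier results of these data known. Each array is labelled as a separate mouse of its group. Same-numbered fasted and unfasted arrays did not deviate together (correlations -0.12, 0.19, 0.01 and 0.04), so the numbers were not taken to pair mice. Alternatives covered the arrays in the fit, normalization, variance moderation, probe set choice, dim genes and thresholds.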

Additional observations from a re-analysis of the deposited data

Results flagged for a closer look

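In 362 groups of 4 arrays, 35 had 1 array far from the other 3 by Dixon's test, which chance gives in about 5% of groups. Of these, 16 were acinar markers of 1 array, and the other 19 of 346 groups (5.49%) are near the chance rate. Mutant unfasted replicate 1 stood out in all 16 acinar markers measured. On that array stood Cpa1 at 12.29 (others 7.05 to 7.13), Cpb1 at 11.52 (others 6.09 to 6.12), Cel at 10.85 (others 6.15 to 6.16) and Cela1 at 9.47 (others 7.39 to 7.47). The same array had Cela2a at 10.06 (others 7.62 to 7.72), Cela3b at 11.22 (others 7.34 to 7.51), Clps at 11.39 (others 7.52 to 7.63) and Ctrb1 at 12.64 (others 7.26 to 7.53). It also had Ctrl at 10.49 (others 6.76 to 6.86), Pla2g1b at 8.82 (others 7.04 to 7.18), Pnliprp1 at 10.08 (others 5.48 to 5.63) and Prss2 at 10.39 (others 6.5 to 6.69). The last of these markers were Rnase1 at 11.43 (others 6.16 to 6.37), Try4 at 5.86 (others 4.77 to 4.88), Try5 at 11.89 (others 7.19 to 7.25) and Zg16 at 10.89 (others 5.71 to 5.86).

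Among the other genes, 1 array stood apart as follows. In mutant unfasted replicate 1, Slc25a25 was the highest of its group at 9.96 (others 9.57 to 9.62) and Tmem120a was the highest of its group at 9.39 (others 9.09 to 9.12). In mutant unfasted replicate 4, Cpt1a was the lowest of its group at 11.80 (others 12.12 to 12.14), Idh3a was the highest of its group at 10.48 (others 10.24 to 10.27) and Cidec was the lowest of its group at 7.93 (others 9.68 to 9.97). In mutant fasted replicate 4, Srebf1 was the highest of its group at 9.30 (others 8.77 to 8.85), Bcl6 was the highest of its group at 8.17 (others 7.71 to 7.76) and Ifit3 was the lowest of its group at 7.94 (others 8.55 to 8.63). In mutant unfasted replicate 3, Shmt2 was the lowest of its group at 10.54 (others 10.78 to 10.80), Ppm1k was the lowest of its group at 10.49 (others 10.72 to 10.76), Gpnmb was the highest of its group at 7.88 (others 6.95 to 7.07), Fitm1 was the lowest of its group at 9.64 (others 10.37 to 10.48) and Epcam was the highest of its group at 7.38 (others 6.61 to 6.72). In mutant fasted replicate 3, Saa1 was the highest of its group at 5.90 (others 5.08 to 5.19) and Lyve1 was the lowest of its group at 9.57 (others 10.47 to 10.57). In mutant fasted replicate 2, Hsph1 was the highest of its group at 9.74 (others 9.15 to 9.25) and Mpo was the lowest of its group at 6.44 (others 6.61 to 6.63). In mutant fasted replicate 1, Ppp1r3g was the highest of its group at 11.69 (others 8.53 to 8.71). In mutant unfasted replicate 2, S100a9 was the highest of its group at 7.16 (others 6.89 to 6.92).

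The fasting response differed between mutants and heterozygotes in 2 genes by limma's interaction test. The difference was 3.87 log2 units for Hsd3b5 (adjusted p = 0.015) and 0.95 for Xkr9 (adjusted p rounding to 0.05), and neither was called without mutant unfasted replicate 1.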

How the results depend on the processing

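With 1 of the 16 arrays left out at a time, mutant rises ranged from 170 to 1050 and falls from 54 to 891, heterozygous rises from 67 to 168 and falls from 84 to 192, and interaction calls from 0 to 6. A fit of the 8 mutant arrays alone gave 19 rises and 14 falls, and 23 and 14 without mutant unfasted replicate 1, an alternative chosen after seeing the data. The fit of the heterozygous arrays alone gave 242 rises and 326 falls, and array weights gave 510 and 519 in heterozygotes and 1 interaction call. A second quantile normalization gave 290 mutant rises and 215 falls. Interaction calls were 1 with median-centred arrays and 0 with robust moderation or with only bright genes. At an adjusted p under 0.01 there were 51 rises and 28 falls in mutants, 31 and 42 in heterozygotes and 0 interaction calls. With at least a 2-fold change there were 11 and 15 in mutants, 17 and 32 in heterozygotes and 1 interaction call. With the replicate number as a block, mutants had 448 rises and 196 falls, heterozygotes 173 and 210, and the interaction 2. The causes of these shifts were not tested. Of 84 named genes called, 30 kept the call under every array left out and 73 lost it in the fit of the 8 mutant arrays. None of the 167 named genes changed sign while called with all arrays or in the alternative. Changes of sign in genes called in neither were not counted. Of the 83 not called, 32 passed without some array. With 4 arrays a group, and fast length not given per mouse, the calls lost without single arrays are the least certain. They include bright genes such as Gabarapl2 and dim ones such as Ms4a1. Whether calls of dim genes were lost more often than those of bright genes was not tested.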
